A study of Mus musculus with 7 samples.

Results

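Transcripts of 40 cell cycle genes were followed through the tumour cells and the immune cells of 7 mouse brain tumour libraries. The 40 genes were picked by name as a working list of proliferation genes, and all 40 were present in each of the 7 count tables, out of 19415 genes listed in at least 1 table. For the description 15 of them, called S members, are mostly transcribed around S phase: Pcna, Mcm2 to Mcm7, Rrm1, Rrm2, Tyms, Gins2, Cdc6, Cdt1, Ccne1 and Ccne2. The other 25, called G2/M members, peak in G2 phase and mitosis (Mki67, Top2a, Ccna2, Ccnb1, Ccnb2, Cdk1, Cdc20, Cenpa, Cenpe, Cenpf, Tpx2, Birc5, Ube2c, Aurka, Aurkb, Bub1, Bub1b, Plk1, Hmgb2, Nusap1, Kif11, Kif23, Cdkn3, Shcbp1 and Ttk).

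The tumours were atypical teratoid rhabdoid tumours (ATRT), embryonal brain tumours that arise on loss of Smarcb1, which belongs to the nucleosome-remodelling SWI/SNF complex. All animals carried Rosa26-creERT2::Smarcb1 fl/fl, in which a tamoxifen-activated Cre recombinase is expressed from the ubiquitous Rosa26 promoter. All were exposed to 50 mg/kg of tamoxifen, injected into the mother at 6.5 days post-coitum. No untreated or Smarcb1-intact control was among the groups. The MYC group had 5 libraries of 4 animals. MYC replicates 1 (12 weeks old) and 5 (27 weeks) were from the basal cerebrum, and replicate 4 (21 weeks) from the trigeminal nerve. MYC replicates 2 and 3 (trigeminal nerve and lateral cerebellum, 19 weeks) have titles that share a number and were taken as 1 animal. The SHH group had 2 libraries of 2 animals, replicate 1 (14 weeks) and replicate 2 (16 weeks), both from the striatum and subventricular zone. No site was shared by the groups, so the group and the site cannot be told apart. The libraries of MYC replicate 5 and SHH replicate 1 were sequenced at 2 time points. Cells that excluded the dead-cell dye 7-AAD were captured in droplets, and the 3' ends of their transcripts were counted as unique molecular identifiers (UMIs, 1 per captured transcript molecule).

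A cell that divides first licenses its replication origins by loading the Mcm helicase, then makes deoxynucleotides and copies its DNA in S phase, and finally condenses, aligns and separates its chromosomes in mitosis. The transcripts of these machines are made in a wave: S phase genes are released from the retinoblastoma family of repressors by E2F factors, and mitotic genes follow through a complex that reads a promoter element called the cell cycle genes homology region (CHR). Because the wave is shared by nearly all dividing cells, the same transcripts can be read in tumour cells, T cells and macrophages of a single tumour.

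The promoters of 5 members on which the class comparisons below turn are shown to let these elements be seen. They are Cdc20, Top2a and Cdk1, mitotic genes with more UMIs in tumour cells than in macrophages, and Mcm6 and Mcm3, helicase genes with fewer UMIs in tumour cells than in T cells. Each is 250 bases before to 50 bases after the annotated start, from RefSeq on GRCm38.p6, written 5′ to 3′ on the strand of the gene. Capitals mark the CHR letters TTTGAA and the E2F-type letters TTTCGCGC, TTTGGCGC, TTTCCCGC and TTTGCCGC, found on either strand.
Cdc20 promoter, chr4:118437294-118437593, minus strand: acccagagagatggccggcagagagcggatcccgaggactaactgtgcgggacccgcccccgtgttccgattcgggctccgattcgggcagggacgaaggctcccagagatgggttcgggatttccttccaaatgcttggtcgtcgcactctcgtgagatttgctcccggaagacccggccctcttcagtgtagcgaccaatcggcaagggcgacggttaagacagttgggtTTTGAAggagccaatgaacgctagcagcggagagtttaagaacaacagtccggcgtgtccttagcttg
Top2a promoter, chr11:99024140-99024439, minus strand: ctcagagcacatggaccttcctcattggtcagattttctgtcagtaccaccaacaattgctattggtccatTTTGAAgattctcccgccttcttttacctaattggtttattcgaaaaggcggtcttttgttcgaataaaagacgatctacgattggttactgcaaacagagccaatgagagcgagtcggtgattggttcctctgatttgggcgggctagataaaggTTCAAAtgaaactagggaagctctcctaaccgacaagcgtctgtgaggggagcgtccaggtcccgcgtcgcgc
Cdk1 promoter, chr10:69352863-69353162, minus strand: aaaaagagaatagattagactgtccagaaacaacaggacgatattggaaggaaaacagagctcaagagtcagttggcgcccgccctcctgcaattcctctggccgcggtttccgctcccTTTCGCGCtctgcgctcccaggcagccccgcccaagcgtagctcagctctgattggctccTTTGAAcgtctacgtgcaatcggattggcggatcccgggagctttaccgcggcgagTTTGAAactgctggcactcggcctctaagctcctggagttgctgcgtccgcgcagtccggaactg
Mcm6 promoter, chr1:128359656-128359955, minus strand: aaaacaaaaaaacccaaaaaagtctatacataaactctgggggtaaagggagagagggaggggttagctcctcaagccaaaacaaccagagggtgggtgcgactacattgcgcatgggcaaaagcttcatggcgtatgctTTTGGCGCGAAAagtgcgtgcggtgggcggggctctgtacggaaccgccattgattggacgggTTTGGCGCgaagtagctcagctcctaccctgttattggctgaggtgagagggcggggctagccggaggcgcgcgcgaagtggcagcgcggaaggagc
Mcm3 promoter, chr1:20820263-20820562, minus strand: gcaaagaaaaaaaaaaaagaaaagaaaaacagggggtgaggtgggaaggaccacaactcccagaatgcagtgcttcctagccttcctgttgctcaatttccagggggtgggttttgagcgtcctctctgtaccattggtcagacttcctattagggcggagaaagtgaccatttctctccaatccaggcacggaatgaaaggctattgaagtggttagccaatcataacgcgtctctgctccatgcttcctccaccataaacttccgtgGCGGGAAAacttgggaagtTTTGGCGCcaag

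Cdc20 had 1 match of the CHR letters, Top2a had 2, and Cdk1 had 2 together with 1 E2F-type match. Mcm6 had 3 E2F-type matches, of which 2 overlapped, and Mcm3 had 2; neither had the CHR letters. Of the 40 members, 33 had a promoter in the table, 12 S members and 21 G2/M members. The CHR letters were in the promoters of 16 of 21 G2/M members (76.2%) and of 1 of 12 S members (8.33%, Mcm2), against 20.2% of all 27025 genes with a promoter of that length. The E2F-type letters were in 6 of 12 S members (50.0%) and in 1 of 21 G2/M members (4.76%, Cdk1), against 2.6% of all genes. CCAAT, on either strand, was in 19 of 21 G2/M members (90.5%) and 8 of 12 S members (66.7%), against 41.1% of all genes. These are matches of letters and not measured binding sites.

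Cell classes were set by counting how many distinct marker genes of a class had at least 1 UMI in a cell, and no member of the 40 is a marker. A cell was macrophage/microglia-gated with 5 or more of 8 markers such as C1qa, Csf1r and Aif1, and T-gated with 2 or more T cell markers such as Cd3e and Trac. It was tumour-gated with 3 or more of 12 markers of either tumour subgroup (such as Krt8, Msln and Col1a1 for MYC, or Sox11, Fabp7 and Dll1 for SHH). A cell that met the rule of several classes was set aside as mixed. The tables held 24433 barcodes, and the study states 24199 cells. After removal of low-quality cells 23938 remained, and after removal of 2039 putative doublets, 1861 of them in MYC replicate 5, 21899 were analysed. Library depth ran from 2150925 to 111985990 UMIs, with at most 76 barcodes shared between any pair of libraries. The gates held 4514 tumour cells, 4898 macrophages or microglia and 2598 T cells, while 7791 cells met no gate, 5832 of them in MYC replicate 5.

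Smarcb1, Ptprc and the marker lists were counted in the gated classes. A list that set a gate is high in that gate by construction, so its sum there does not test the class. Smarcb1, the deleted gene, was at 1.74 UMIs per 1000000 UMIs (CPM) over all tumour-gated cells (58 UMIs), at 45.6 CPM in macrophage/microglia-gated cells and at 32.4 CPM in T-gated cells. Ptprc, the pan-leukocyte surface phosphatase, had a UMI in 3.77% of tumour-gated cells against 51.8% of macrophage/microglia-gated and 54.9% of T-gated cells. The macrophage list summed to 12356 to 18408 CPM in macrophage/microglia-gated cells of MYC libraries and 25522 to 32476 CPM in those of SHH libraries, and the T list to 1351 to 3418 and 4089 to 4254 CPM in T-gated cells. Transcripts of other types were also present: the SHH tumour list reached 197 to 273 CPM in SHH macrophages against 23.1 to 62.3 CPM in MYC macrophages, and 361 to 363 against 29.0 to 42.7 CPM in T-gated cells. The part of such carried-over transcripts in the results below was not tested.

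Among the 3 large classes, the summed transcripts of the 40 genes were most abundant in T cells and in SHH tumour cells, and less abundant in macrophages and microglia. The summed level is the UMIs of the 40 members per 1000000 UMIs of the class in an animal (CPM). In T-gated cells it was 2541, 1787, 2897 and 2683 CPM in the MYC animals and 2280.5 and 2467 CPM in the SHH animals. All per-animal values are given in this order: MYC replicate 1, then MYC replicates 2 and 3 as 1 animal, then MYC replicates 4 and 5, and SHH replicates 1 and 2. In tumour-gated cells it was 2469, 794, 1537 and 1634 CPM in the MYC animals and 2572 and 3196 CPM in the SHH animals. In macrophage/microglia-gated cells it was 1263, 1547, 489.7 and 1640 CPM in the MYC animals and 674 and 715 CPM in the SHH animals. T cells therefore exceeded macrophages in 6 of 6 animals, by a ratio of 1.15 to 5.92 (median 2.70). Tumour cells exceeded macrophages in 4 of 6 animals (ratio 0.513 to 4.47, median 2.55) and T cells in 2 of 6 animals, the 2 SHH animals (ratio 0.445 to 1.30, median 0.790).

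The groups were arranged differently in the 3 classes. In tumour-gated cells the summed level was 1609 ± 685 CPM in MYC animals (SD, n = 4) and 2884 ± 442 CPM in SHH animals (SD, n = 2), without overlap. Macrophages were at 1235 ± 522 CPM (SD, n = 4) and 694 ± 28.8 CPM (SD, n = 2), with MYC replicate 4 below both SHH animals. T cells were at 2477 ± 483 CPM (SD, n = 4) and 2374 ± 132 CPM (SD, n = 2) and overlapped. The low tumour value of MYC replicates 2 and 3 came mainly from replicate 3, the lateral cerebellar tumour, at 603 CPM over 108 cells, while replicate 2 from the trigeminal nerve was at 1611 CPM over 46 cells. No test was made of the sum.

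A large part of the sum was Hmgb2, a DNA-bending chromatin protein whose transcript is abundant and peaks in G2/M. Hmgb2 made up 31.8% and 37.1% of the member UMIs of SHH tumour cells and 13.6 to 24.7% of those of MYC tumour cells. Without Hmgb2 the tumour values were 2132, 663, 1158 and 1401 CPM in the MYC animals and 1754.5 and 2009.7 CPM in the SHH animals, so that the groups overlapped. Without it T cells still exceeded macrophages in 6 of 6 animals, tumour cells exceeded macrophages in 5 of 6 and T cells in 3 of 6. Of the member UMIs other than Hmgb2, S members made up a mean of 37.4% in tumour cells (23.0 to 52.0%), 46.5% in macrophages (36.1 to 63.6%) and 44.2% in T cells (31.5 to 69.7%).

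**Figure D1:**
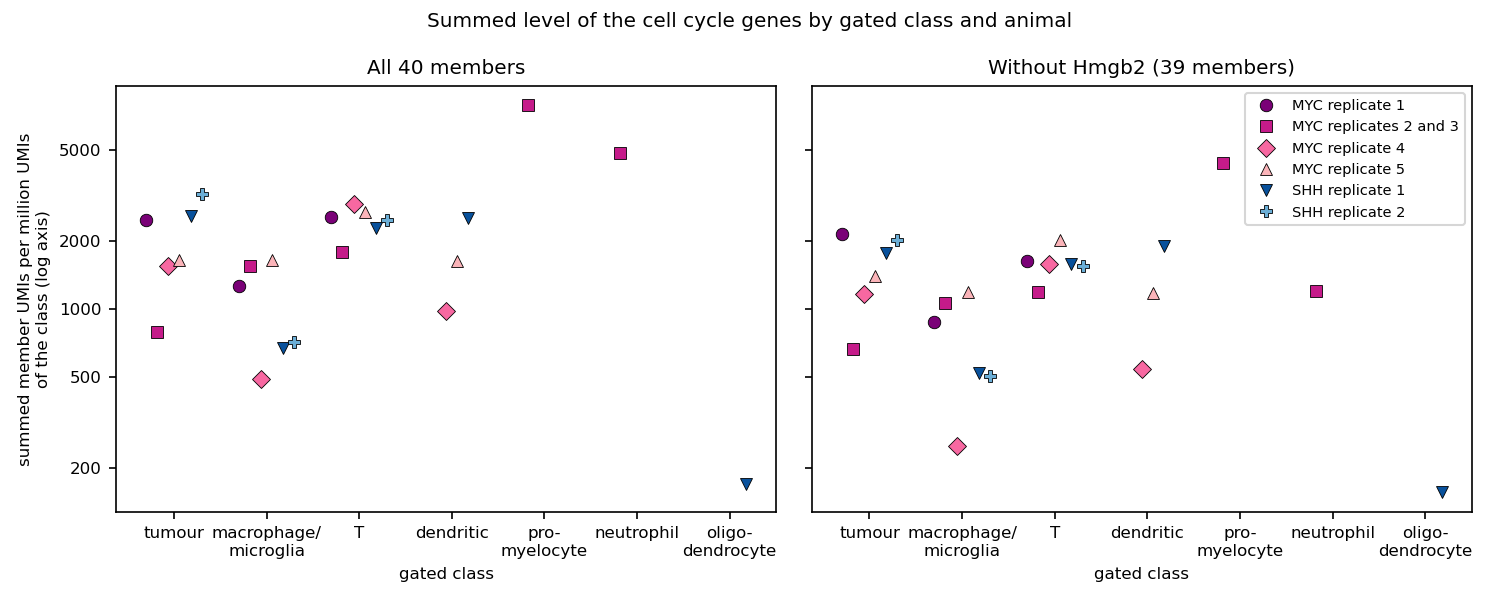
Summed level of the cell cycle genes in each animal and gated class, in CPM of the class on a log axis; the left panel holds all 40 genes and the right panel leaves out Hmgb2. T-gated cells sit above macrophage/microglia-gated cells in 6 of 6 animals in both panels, and the SHH tumour cells lie above all MYC tumour cells in the left panel only.

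Each cell was then called in S phase, in G2/M or in neither. Because deeper cells show more UMIs of every gene, each cell was thinned at random to 1500 UMIs. A cell was called in G2/M with 3 or more UMIs of G2/M members and at least as many as of S members, and in S with 3 or more UMIs of S members and more than of G2/M members. Tumour cells and T cells were called more often than macrophages in most animals, and G2/M calls outnumbered S calls in tumour cells of 6 of 6 animals. The G2/M list is the longer, holds Hmgb2 and takes ties, and without Hmgb2 SHH replicate 2 had 82 tumour cells in each phase (10.1%), so that G2/M calls led in 5 of 6. Among tumour-gated cells 33.3% of 138, 5.19% of 154, 28.0% of 50 and 16.3% of 2915 were called in the MYC animals, and 21.2% of 354 and 25.7% of 809 in the SHH animals. In macrophage/microglia-gated cells the shares were 20.5% of 44, 12.9% of 31, 4.14% of 169 and 17.5% of 2660 in the MYC animals and 5.46% of 1448 and 5.56% of 288 in the SHH animals. In T-gated cells they were 22.9% of 48, 5.45% of 55, 33.1% of 305 and 31.0% of 899 in the MYC animals and 30.7% of 228 and 22.7% of 75 in the SHH animals.

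The mean share called was 21.6 ± 9.93% in tumour cells, 11.0 ± 6.97% in macrophages and 24.3 ± 10.2% in T cells (SD, n = 6 animals each). The share was higher in T cells than in macrophages in 5 of 6 animals and higher in tumour cells than in macrophages in 4 of 6. Within tumour cells the G2/M share was 24.6%, 3.90%, 20.0% and 12.9% in the MYC animals and 18.6% and 18.9% in the SHH animals, and the S share was 8.70%, 1.30%, 8% and 3.36%, and 2.54% and 6.80%. The MYC animals thus spread on either side of the SHH animals. The animal of MYC replicates 2 and 3 was lowest of the 6 in both tumour and T cells, with 95% Wilson intervals of 2.66 to 9.92% and 1.87 to 14.9%; these intervals cover counting error only.

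The share called moved with the depth of the cells. Thinning left out 476 of 781 and 446 of 674 T cells in MYC replicate 4 and SHH replicate 1. The T cell shares of these animals therefore describe only the deeper cells. Among the T cells kept in SHH replicate 1, G2/M cells had a median of 2386 UMIs against 1830.5 in cells not called. The part of this selection in the shares was not tested. Without thinning the tumour shares were 81.9%, 50.6%, 66.7% and 54.8% in the MYC animals and 33.2% and 49.5% in the SHH animals, and the macrophage shares 38.6%, 41.9%, 8.16% and 44.4%, and 11.3% and 9.45%. The T cell shares were then 41.7%, 18.2%, 21.0% and 61.0% in the MYC animals and 15.1% and 17.0% in the SHH animals. Median UMIs per tumour-gated cell were 12025, 11648, 6638 and 7216 in the MYC animals and 3181 and 4089 in the SHH animals. Whether tumour or T cells had the higher share changed with the thinning: tumour cells were higher in 2 of 6 animals at 1500 UMIs, in 5 of 6 at 1000 UMIs, in 1 of 4 at 3000 UMIs and in 5 of 6 without thinning. Oligodendrocyte-gated cells, which do not divide, gave 0 called of 40 in SHH replicate 1, which allows a share of up to 7.50%, with 0 of 40 holding a Mki67 UMI and 1 of 40 a Top2a UMI.

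**Figure D2:**
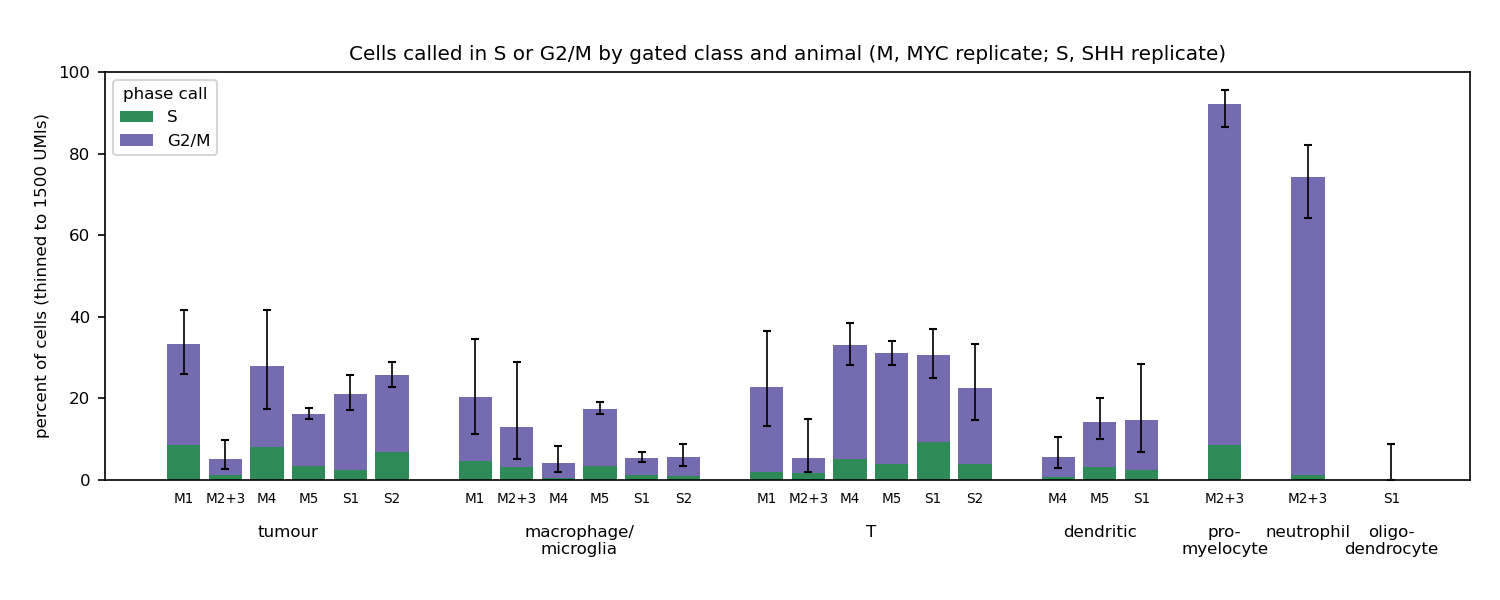
Percent of cells called in S (lower part of each bar) or G2/M (upper part) by gated class and animal, after thinning every cell to 1500 UMIs, with 95% Wilson intervals for the total. Macrophage/microglia-gated cells of both SHH animals and MYC replicate 4 stay between 4.14% and 5.56%, while T-gated cells lie between 22.7% and 33.1% in all animals but that of MYC replicates 2 and 3.

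Genes outside the 40 mostly followed the phase calls. Over the 18 sums of the 3 classes, cells called in G2/M had the most UMIs of 51 further mitosis genes in 18, and cells called in S had more UMIs of 32 further DNA replication genes than cells not called in 16 and more than G2/M cells in 12, all counted after thinning. In MYC replicate 5, tumour cells called in S held 3.43 UMIs per cell of the replication genes, those called in G2/M held 2.87, and those not called held 0.85. For the mitosis genes the values were 3.10, 7.08 and 1.35 UMIs per cell in the same cells. SHH replicate 2 tumour cells had 5.85, 5.46 and 1.25 UMIs of the replication genes and 3.07, 8.84 and 1.58 UMIs of the mitosis genes. The macrophages of MYC replicate 5 gave 3.56, 2.23 and 0.83 UMIs and 2.08, 6.03 and 1.03 UMIs, in the same order as in tumour cells. The order failed in tumour cells of MYC replicate 4, where 4 S cells held 0.50 UMIs of the replication genes, 10 G2/M cells 3 and the rest 0.56, and in macrophages of MYC replicate 1, where 2 S cells held 0.50. Called cells were deeper before thinning, with medians of 9074 (S) and 10106 (G2/M) against 6781 UMIs in MYC replicate 5 tumour cells, and S and G2/M cells were both deeper than the rest in 16 of 18 sums. Tumour cells without any UMI of the 40 genes after thinning made up 21.0 to 62.3% of an animal's tumour-gated cells.

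Finer gates covered only part of the cells. Among T-gated cells 1037 of MYC and 387 of SHH animals entered no finer gate. Among macrophage/microglia-gated cells 2331 of MYC and 962 of SHH animals entered none. The shares called below describe only the cells inside each finer gate. T cells were divided by any UMI of Foxp3, the factor of regulatory T cells, of Cd8a or Cd8b1, or of Cd4. Those with Foxp3 had 49.5% called in MYC replicate 5 (101 cells, 95% interval 39.95 to 59.09%), against 27.3% of 172 Cd8 T cells and 35.0% of 40 Cd4 T cells. In MYC replicate 4 the shares were 35.7% of 28 regulatory T cells, 38.0% of 92 Cd8 T cells and 13.9% of 36 Cd4 T cells, so the order of the first pair was not the same. Summed levels in the regulatory T cells were 3898 CPM in MYC replicate 4 and 4230 CPM in MYC replicate 5, above the 3338 and 2822 CPM of the Cd8 T cells. Cd8 T cells of the SHH animals had 24.7% of 97 and 21.1% of 38 called.

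MYC tumour cells were divided by 2 or more epithelial markers such as keratins and 2 or more mesenchymal markers such as collagens. In MYC replicate 5 cells with both kinds had 22.6% called (855 cells, 19.9 to 25.5%), those with mesenchymal markers alone 13.8% (1920 cells, 12.3 to 15.4%) and those with epithelial markers alone 14.4% (90 cells). MYC replicate 1 had 35.8% of 95 cells with both kinds called and 29.6% of 27 epithelial cells. Cells with both kinds were also the deepest, with a median of 9952 UMIs in MYC replicate 5 against 6325 for mesenchymal cells, and the part of depth in the gate was not tested. SHH tumour cells with neural progenitor markers had 20.9% of 239 and 27.0% of 607 called. Microglia of the SHH animals, with 2 or more homeostatic markers such as P2ry12 and Tmem119, had 5.7% of 796 and 8.0% of 50 called, and cells with Ms4a7, Mrc1 or Ccr2 and no microglia marker had 11.7% of 411 in MYC replicate 5, 3.9% of 129 in MYC replicate 4 and 2.3% of 43 in SHH replicate 1.

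The highest levels in any class were in neutrophil precursors of 1 library. Promyelocyte-gated cells (3 or more of Mpo, Elane, Prtn3, Ctsg, Ms4a3 and Fcnb, genes of azurophil granules and early neutrophil development) numbered 140, all in MYC replicate 2, and summed to 7877 CPM (95% Poisson interval 7753 to 8003, counting error only). Of these 92.1% were called (86.5 to 95.6%), 83.6% in G2/M and 8.57% in S, and without Hmgb2 77.9% were still called. Hmgb2 was at 3509 CPM, Rrm2 at 398 CPM, Ube2c at 353 CPM, Birc5 at 342 CPM and Tyms at 221 CPM, and 62.9% of the cells held a Top2a UMI. Neutrophil-gated cells of the same animal summed to 4844 CPM, but 75.2% of those UMIs were Hmgb2, and the share called fell from 74.2% of 89 cells to 12.4% when Hmgb2 was left out. With 1 animal these classes have no replicate.

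**Figure D3:**
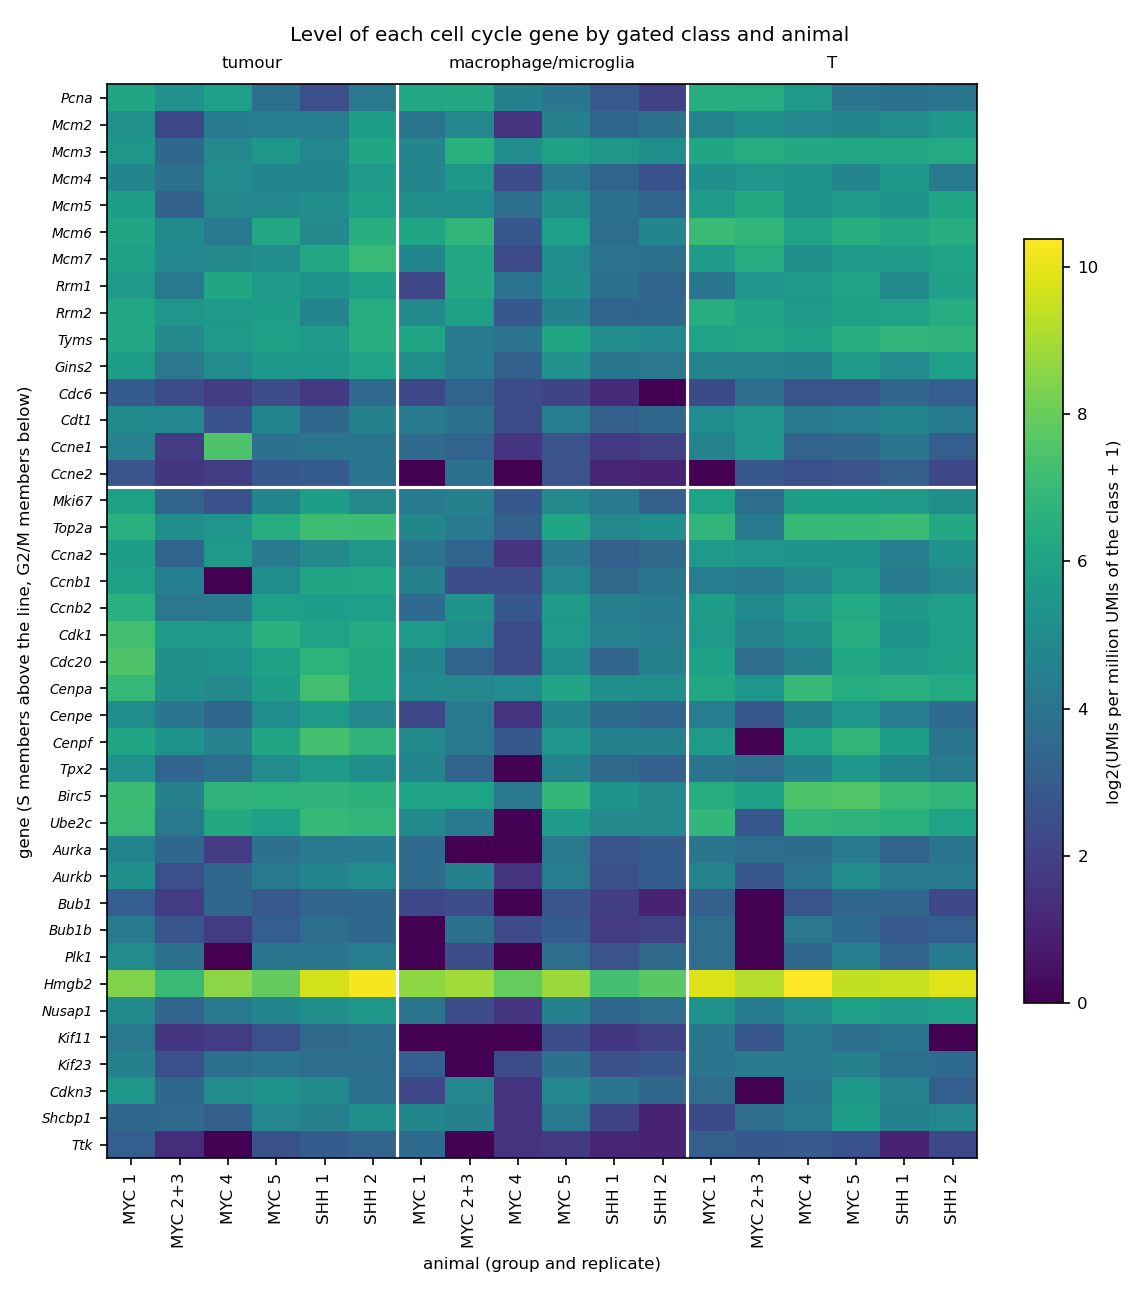
Level of each cell cycle gene, as log2(CPM + 1), by gated class and animal, with the S genes above the dividing line and the G2/M genes below it. Hmgb2 is the brightest row in tumour, macrophage/microglia and T-gated cells, and the dark cells of MYC replicate 4 macrophages mark genes at or near 0 UMIs.

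The 3 main classes were compared gene by gene within animals. UMIs were summed per animal and class and fitted with edgeR with the animal as a block, 18 sums in all. A gene passed with a Benjamini-Hochberg adjusted p of at most 0.05 over the 8732 genes tested. Of the 40 members 36 were tested, since Cdc6, Ccne2, Bub1 and Ttk were too low. Against macrophages, tumour cells had more of 5 mitotic and nucleotide synthesis transcripts, Cdc20, Cdk1, Rrm2, Top2a and Cenpf, and fewer of none. Against T cells, tumour cells had more of none and fewer Mcm3, Mcm6 and Nusap1 transcripts. T cells had more of 8 members than macrophages, Nusap1, Rrm2, Top2a, Cdc20, Ccna2, Tyms, Kif11 and Mcm6, and fewer of none.

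These counts stand beside the wide differences between the classes over all genes. Of all genes tested, 18.5% were higher and 20% lower in tumour cells than in macrophages, so 5 of 36 members higher is below that background. Against T cells 16.1% of all genes were higher and 15.8% lower in tumour cells, where 0 and 3 of 36 members passed. In T cells against macrophages 23.9% of all genes passed, 9.8% higher and 14.1% lower, where 8 and 0 of 36 members passed. At an unadjusted p under 0.05 the members numbered 10, 5 and 17 in these comparisons. The median log2 fold change was 0.64 for members and 0.06 for all genes in tumour cells against macrophages, and -0.29 and 0.07 against T cells. In T cells against macrophages it was 0.88 and 0.02, and 36 of 36 tested members were above 0.

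**Figure D4:**
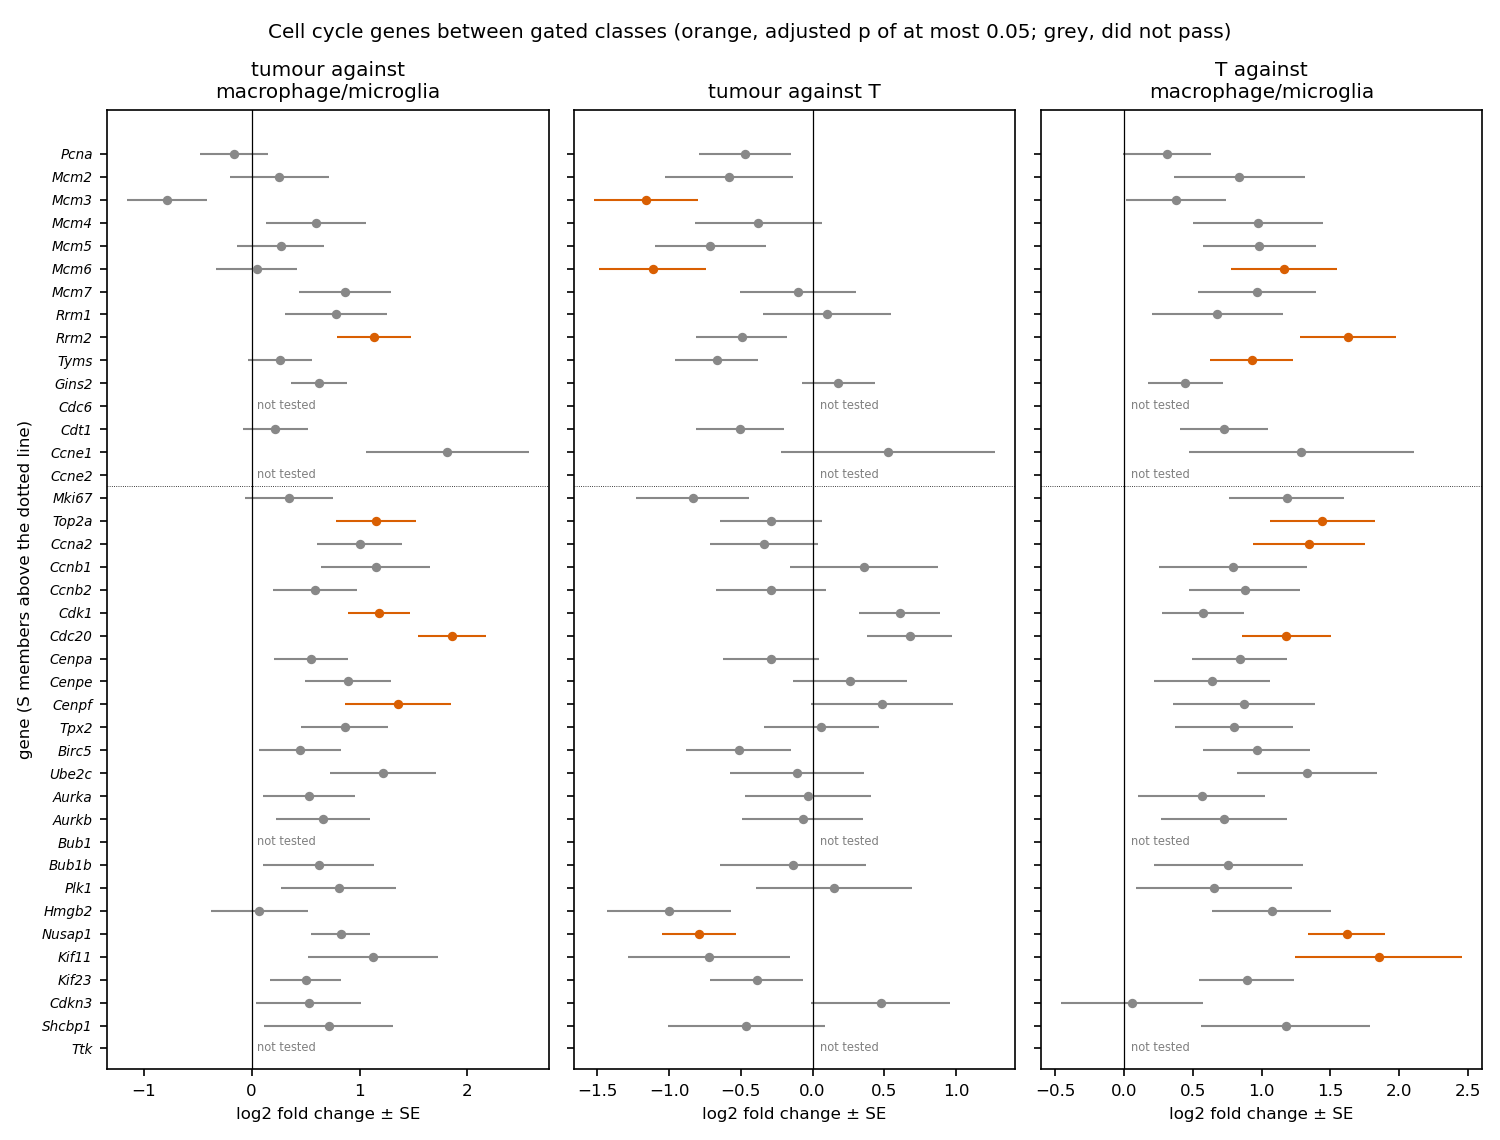
Log2 fold change with its standard error for each cell cycle gene in tumour cells against macrophages, tumour cells against T cells and T cells against macrophages, from edgeR with the animal as a block; orange points passed an adjusted p of 0.05. All 36 tested genes lie above 0 in the right panel, with 8 passing, while the middle panel holds 3 that passed, all below 0.

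The drivers of mitotic entry and exit were led by Cdc20, the activator of the anaphase-promoting complex (chr4:118432901-118437352, GRCm38, protein-coding). Cdc20 was at 179, 34.8, 38.8 and 60.3 CPM (MYC) and 103 and 77.8 CPM (SHH) for tumour-gated cells. In macrophages it was at 26.2, 9.02, 4.15 and 32.5 CPM (MYC) and 9.67 and 22.3 CPM (SHH), below tumour cells in each animal. T cells had 59.6, 12.0, 22.0 and 73.2 CPM (MYC) and 52.9 and 60.8 CPM (SHH). Cdc20 was higher in tumour cells than in macrophages (log2 fold change 1.86, SE 0.32, adjusted p = 0.000367) and higher in T cells than in macrophages (log2 fold change 1.18, SE 0.32, adjusted p = 0.0155). The difference between T cells and macrophages was lost without SHH replicate 1 (adjusted p = 0.083) and without the animal block (0.159).

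Cdk1, the kinase that drives mitosis (chr10:69335146-69352938), was at 151, 51.2, 49.1 and 95.7 CPM (MYC) and 63.1 and 83.1 CPM (SHH) for tumour cells. Macrophages had 48.7, 31.6, 4.15 and 46.9 CPM (MYC) and 23.5 and 19.3 CPM (SHH), again lower in each animal. T cells had 47.6, 24.0, 34.4 and 86.9 CPM (MYC) and 38.2 and 57.0 CPM (SHH). Cdk1 passed in tumour cells against macrophages (log2 fold change 1.18, SE 0.29, adjusted p = 0.0052). Its level was also above that of T cells in 6 of 6 animals, a difference that did not pass (log2 fold change 0.61, SE 0.28, adjusted p = 0.119). Ccnb1, the B-type cyclin that activates Cdk1, was at 58.5, 21.1, 0 and 33.4 CPM (MYC) and 69.4 and 71.6 CPM (SHH) in tumour cells, where the 0 of MYC replicate 4 allows up to 7.75 CPM. Macrophages had 22.5, 4.51, 4.15 and 28.0 CPM (MYC) and 11.1 and 15.2 CPM (SHH) of Ccnb1 and T cells 19.9, 17.99, 26.8 and 51.2 CPM (MYC) and 17.6 and 26.6 CPM (SHH). Ccnb1 did not pass in tumour cells against macrophages (log2 fold change 1.15, SE 0.51, adjusted p = 0.0874), but passed without MYC replicate 4 (adjusted p = 0.010). In the remaining class comparisons its adjusted p was 0.646 against T cells and 0.321 in T cells against macrophages.

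Ccna2, the cyclin of S phase and early mitosis (chr3:36564865-36572150), was at 47.6, 42.0, 39.9 and 38.3 CPM (MYC) and 20.6 and 38.0 CPM (SHH) for T cells. Macrophages had 15.0, 9.02, 2.07 and 18.3 CPM (MYC) and 8.09 and 11.1 CPM (SHH), less than T cells in each animal (log2 fold change 1.34, SE 0.41, adjusted p = 0.0268). The adjusted p of Ccna2 rose to between 0.061 and 0.067 without MYC replicate 1, SHH replicate 1 or SHH replicate 2, and was 0.061 with the looser gate. Among the other members with these roles, Ube2c, the ubiquitin-conjugating enzyme of the anaphase-promoting complex, ranged from 17.4 to 126 CPM in tumour cells and 0 to 51.9 CPM in macrophages. The kinases Aurka, Aurkb, Plk1, Bub1, Bub1b and Ttk, which build and check the spindle, stayed at or below 36.2 CPM in all 18 sums, and none of them passed.

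Among chromosome and spindle genes, Top2a, Cenpf, Nusap1 and Kif11 each passed in a comparison with macrophages. Top2a, the topoisomerase that untangles sister chromosomes (chr11:98992943-99024189), was at 94.2, 34.8, 41.3 and 86.1 CPM (MYC) and 141 and 139 CPM (SHH) for tumour cells. In macrophages Top2a was at 26.2, 18.05, 8.30 and 68.9 CPM (MYC) and 26.7 and 35.5 CPM (SHH). In T cells it was at 111, 17.99, 124 and 123 CPM (MYC) and 134 and 76.0 CPM (SHH), where only the animal of MYC replicates 2 and 3 was at the macrophage level. Top2a passed in tumour cells against macrophages (log2 fold change 1.15, SE 0.37, adjusted p = 0.024) and in T cells against macrophages (log2 fold change 1.44, SE 0.38, adjusted p = 0.0134). Tumour cells against T cells did not pass (log2 fold change -0.29, SE 0.36, adjusted p = 0.581). The tumour call was lost without MYC replicate 1, SHH replicate 1 or SHH replicate 2 (adjusted p 0.068, 0.095 and 0.062), and the T cell call without SHH replicate 1 (0.067). Without the animal block neither Top2a call passed (0.108 and 0.063).

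Cenpf, a protein of the outer kinetochore (chr1:189640606-189688086), was at 68.1, 38.5, 23.3 and 68.6 CPM (MYC) and 158 and 106 CPM (SHH) for tumour cells. Macrophages had 30.0, 18.05, 6.22 and 42.8 CPM (MYC) and 22.5 and 22.3 CPM (SHH), below tumour cells in each animal (log2 fold change 1.36, SE 0.49, adjusted p = 0.0427). The Cenpf call was also lost without MYC replicate 1, SHH replicate 1 or SHH replicate 2 (adjusted p 0.075, 0.155 and 0.086), and without the animal block (0.116). Nusap1, which bundles spindle microtubules (chr2:119618298-119651244), had its highest levels in T cells, 39.7, 17.99, 33.0 and 57.6 CPM (MYC) and 47.98 and 57.0 CPM (SHH). It was at 30.0, 9.50, 18.1 and 25.8 CPM (MYC) and 34.7 and 43.9 CPM (SHH) for tumour cells and 15.0, 4.51, 2.07 and 22.5 CPM (MYC) and 10.5 and 12.2 CPM (SHH) for macrophages. In each animal T cells were above tumour cells and tumour cells above macrophages. Nusap1 passed in T cells against macrophages (log2 fold change 1.62, SE 0.28, adjusted p = 0.000729) and was lower in tumour cells than in T cells (log2 fold change -0.79, SE 0.26, adjusted p = 0.031). The latter call was lost without each animal but that of MYC replicates 2 and 3 (adjusted p 0.054 to 0.088), with the looser gate (0.115), without the low-count filter (0.053) and without the animal block (0.167).

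Kif11, the motor that pushes spindle poles apart (chr19:37376403-37421859), was at 15.9, 5.997, 17.9 and 12.7 CPM (MYC) and 15.7 and 0 CPM (SHH) for T cells. Macrophages had 0, 0, 0 and 4.67 CPM (MYC) and 2.17 and 3.04 CPM (SHH). The macrophages of 3 MYC animals had 0 UMIs of Kif11, which allows up to 11.2, 13.5 and 6.22 CPM, and so its fitted change depends on the few UMIs elsewhere (log2 fold change 1.85, SE 0.61, adjusted p = 0.0389). That call was lost without MYC replicate 1, MYC replicates 2 and 3, MYC replicate 4 or SHH replicate 1 (adjusted p 0.060 to 0.158), and without the low-count filter (0.054). Mki67, which coats mitotic chromosomes and is the usual histological marker of proliferation (chr7:135689784-135716361), was at 58.1, 8.97, 5.17 and 26.3 CPM (MYC) and 53.6 and 28.8 CPM (SHH) for tumour cells. Macrophages had 18.7, 22.6, 6.22 and 28.1 CPM (MYC) and 19.1 and 8.11 CPM (SHH) of Mki67 and T cells 63.5, 12.0, 54.4 and 54.4 CPM (MYC) and 50.9 and 34.2 CPM (SHH). Mki67 passed in none of the 3 comparisons in the edgeR fit. T cells against macrophages came nearest (log2 fold change 1.18, SE 0.42, adjusted p = 0.0548). That difference passed in DESeq2 (adjusted p = 0.023), with another normalization (RLE, 0.0497), with the stricter and the looser gate (0.010 and 0.014) and without MYC replicates 2 and 3 (0.027). It was followed by tumour cells against T cells (log2 fold change -0.84, SE 0.40, adjusted p = 0.123) and tumour cells against macrophages (log2 fold change 0.35, SE 0.40, adjusted p = 0.539).

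The nucleotide synthesis genes Rrm2 and Tyms were higher in T cells than in macrophages. Rrm2, the regulated subunit of ribonucleotide reductase (chr12:24708241-24714146), was at 73.3, 43.3, 49.1 and 55.3 CPM (MYC) and 25.2 and 85.3 CPM (SHH) for tumour cells. Macrophages had 30.0, 58.7, 6.22 and 22.7 CPM (MYC) and 8.88 and 10.1 CPM (SHH) and T cells 87.4, 66.0, 52.3 and 60.5 CPM (MYC) and 64.6 and 83.6 CPM (SHH) of Rrm2. Rrm2 passed in T cells against macrophages (log2 fold change 1.63, SE 0.35, adjusted p = 0.00346), higher in each animal. It also passed in tumour cells against macrophages (log2 fold change 1.13, SE 0.34, adjusted p = 0.0172), but not without SHH replicate 2 (adjusted p = 0.084) or with the stricter or the looser gate (0.065 and 0.084). Tyms, thymidylate synthase (chr5:30058202-30073617), was at 63.5, 72.0, 59.2 and 87.7 CPM (MYC) and 114 and 106 CPM (SHH) for T cells. It was at 73.3, 28.5, 51.7 and 58.1 CPM (MYC) and 46.5 and 90.4 CPM (SHH) for tumour cells and 67.5, 18.05, 14.52 and 66.8 CPM (MYC) and 33.4 and 27.4 CPM (SHH) for macrophages. Tyms passed in T cells against macrophages (log2 fold change 0.93, SE 0.30, adjusted p = 0.0376), but not without MYC replicates 2 and 3, MYC replicate 4, SHH replicate 1 or SHH replicate 2 (adjusted p 0.075 to 0.126). Nor did it pass with the stricter or looser gate (0.069 and 0.054), without the low-count filter (0.066) or without the animal block (0.131). Tumour cells against T cells did not pass (log2 fold change -0.67, SE 0.29, adjusted p = 0.094).

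Mcm3 and Mcm6, subunits of the replicative helicase, were lower in tumour cells than in T cells. Mcm3 (chr1:20802968-20820312) was at 67.5, 84.0, 75.7 and 72.3 CPM (MYC) and 72.5 and 79.8 CPM (SHH) for T cells. Tumour cells had 43.3, 10.0, 28.4 and 44.5 CPM (MYC) and 27.6 and 68.5 CPM (SHH) of Mcm3, lower in each animal, and macrophages had 26.2, 94.7, 33.2 and 58.1 CPM (MYC) and 44.4 and 34.5 CPM (SHH). Mcm3 was lower in tumour cells than in T cells (log2 fold change -1.16, SE 0.36, adjusted p = 0.0259), but not without MYC replicate 4 or SHH replicate 1 (adjusted p 0.093 and 0.089) or with the looser gate (0.052). Mcm6 (chr1:128331590-128359664) was at 135, 114, 66.1 and 93.4 CPM (MYC) and 73.4 and 87.4 CPM (SHH) for T cells. Tumour cells had 69.5, 30.6, 18.1 and 74.0 CPM (MYC) and 28.4 and 90.1 CPM (SHH), where SHH replicate 2 was above its T cells.

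Macrophages had 67.5, 113, 6.22 and 56.5 CPM (MYC) and 12.4 and 26.4 CPM (SHH) of Mcm6. It passed as lower in tumour cells than in T cells (log2 fold change -1.11, SE 0.37, adjusted p = 0.0339) and as higher in T cells than in macrophages (log2 fold change 1.16, SE 0.38, adjusted p = 0.0414). Without MYC replicate 1, MYC replicate 4 or SHH replicate 1 the call against tumour cells was lost (adjusted p 0.077, 0.110 and 0.112). The call against macrophages was lost without the same animals or SHH replicate 2 (0.074, 0.117, 0.176 and 0.073). Both were also lost with the looser gate (0.066 and 0.122) and without the animal block (0.181 and 0.278), and the latter with the stricter gate (0.075). Mcm5, another of the helicase subunits, was at 54.7, 8.44, 28.4 and 28.0 CPM (MYC) and 33.9 and 61.0 CPM (SHH) for tumour cells. Its macrophages were at 33.7, 31.6, 12.4 and 34.7 CPM (MYC) and 13.2 and 9.12 CPM (SHH) and its T cells at 51.6, 78.0, 38.5 and 46.3 CPM (MYC) and 38.2 and 68.4 CPM (SHH), with T cells above macrophages in each animal. No comparison passed for Mcm5 (log2 fold change 0.98, SE 0.41, adjusted p = 0.0983 in T cells against macrophages, adjusted p = 0.183 in tumour cells against T cells and 0.642 against macrophages). The other S members, Mcm2, Mcm4, Mcm7, Rrm1, Gins2, Cdt1, Ccne1 and Pcna, passed in no class comparison.

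In all, 9 of 40 members had a higher level in tumour cells than in macrophages of each animal (Top2a, Cdt1, Cdk1, Cdc20, Cenpf, Tpx2, Nusap1, Kif11 and Kif23), and 15 of 40 in T cells than in macrophages of each animal. Against T cells, tumour cells were higher for 1 member in each animal (Cdk1) and lower for 2 (Mcm3 and Nusap1). The share of all genes with the same order in each animal was not counted, so these counts have no background. The calls of Cdc20 and Cdk1 in tumour cells and of Rrm2 and Nusap1 in T cells, each against macrophages, held in every alternative tried.

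The same 3 classes were next compared between the subgroups, MYC against SHH, with the animal as the replicate (4 against 2). In tumour cells 0 of 40 members passed in edgeR, against 7.33% of 11207 genes (3.8% higher and 3.53% lower in MYC), with 4 members at an unadjusted p under 0.05 and 1 (Hmgb2) passing in DESeq2. The members lay lower in MYC: their median log2 fold change was -0.37 against 0.04 for all genes, and 13 of 40 were above 0. The 7 members whose animals did not overlap between the groups were Top2a, Mcm7, Ccne2, Ccnb1, Cenpf, Hmgb2 and Nusap1, all lower in MYC. The share of all genes without overlap was not counted, so the 7 cannot be read as a result about the members.

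Hmgb2 (chr8:57511907-57515999) was at 337, 131, 379.8 and 234 CPM (MYC) and 817 and 1187 CPM (SHH) for tumour cells, with both SHH values above the highest MYC value (log2 fold change -1.67, SE 0.44, adjusted p = 0.0694). It passed without MYC replicates 2 and 3 (adjusted p = 0.043). The levels of Mcm7, another helicase subunit, were 59.5, 27.4, 28.4 and 33.2 CPM (MYC) and 71.8 and 129 CPM (SHH) in tumour cells (log2 fold change -1.19, SE 0.43, adjusted p = 0.146). For Cenpf and Top2a, with the values above, the changes were log2 fold change -1.12, SE 0.47, adjusted p = 0.191 and log2 fold change -0.86, SE 0.47, adjusted p = 0.297. Ccnb1, whose animals did not overlap, did not pass (log2 fold change -0.998, SE 0.91, adjusted p = 0.544). Mcm5 (log2 fold change -0.44, SE 0.66, adjusted p = 0.729) and Mki67 (log2 fold change -0.42, SE 0.83, adjusted p = 0.807) overlapped between the groups and did not pass. The neutrophil list reached 8.24 to 787 CPM in MYC tumour cells (8 of 8 markers with a UMI) and 10.6 to 18.1 CPM in SHH tumour cells (1 of 8). The astrocyte list separated the groups, at 23.3 to 92.8 CPM in MYC (6 of 7 markers, Fgfr3 at 0) and 174 to 387 CPM in SHH (7 of 7). The part of such transcripts in these levels was not tested.

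In macrophages the direction was opposite in the edgeR fit. The median log2 fold change in MYC against SHH was 0.45 for members and 0.03 for all genes. Of 30 tested members 29 were above 0, and the share of all genes above 0 was not counted. The class held 18 microglia-gated cells and 582 with other macrophage markers in MYC animals, against 930 and 75 in SHH animals. The part of this make-up in the changes was not tested. No member passed in edgeR (0 of 30), with 4 at an unadjusted p under 0.05, and 1, Pcna, passed in DESeq2. Over all 6713 genes tested 1.07% passed, 0.7% of them all as higher in MYC. Hmgb2 was at 386, 483, 241 and 454 CPM (MYC) and 154 and 209.8 CPM (SHH) for macrophages, without overlap (log2 fold change 0.91, SE 0.40, adjusted p = 0.345). Shcbp1, an adaptor of signalling and cytokinesis, was at 26.2, 22.6, 2.07 and 18.7 CPM (MYC) and 3.36 and 1.01 CPM (SHH), where MYC replicate 4 lay among the SHH animals (log2 fold change 2.47, SE 0.86, adjusted p = 0.217). Mcm5 (log2 fold change 1.11, SE 0.48, adjusted p = 0.330) and Rrm2 (log2 fold change 1.30, SE 0.65, adjusted p = 0.420), with the values above, did not pass, and the changes of Mki67, Ccnb1 and Top2a were 0.30 (SE 0.57), 0.28 (SE 0.66) and 0.04 (SE 0.63).

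Macrophage/microglia-gated cells that entered a finer gate were made up differently in the groups. There were 18 microglia-gated cells and 582 with other macrophage markers in MYC animals, against 930 and 75 in SHH animals. A further 2331 cells of MYC and 962 of SHH animals entered neither, and their make-up was not resolved. The monocyte list separated the groups, at 346 to 6690 CPM in MYC and 88.6 to 206 CPM in SHH macrophages (7 of 7 markers with a UMI in each). The neutrophil list, which overlapped, summed to 61.3 to 1390 CPM in MYC macrophages (8 of 8 markers with a UMI) and to 50.7 to 79.6 CPM in SHH macrophages (5 of 8, with Cxcr2, S100a9 and Mmp9 at 0). The promyelocyte list summed to 0 to 187 CPM (5 of 6 markers, with Fcnb at 0) and to 0 to 0.79 CPM (1 of 6, with Mpo, Elane, Prtn3, Ctsg and Fcnb at 0). The part of these cells and transcripts in the member levels of MYC macrophages was not tested.

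In T cells 0 of 35 tested members passed in edgeR, against 0.0147% of 6787 genes, 1 had an unadjusted p under 0.05, and 0 passed in DESeq2. The median log2 fold change of members was 0.24 and that of all genes 0.05. Of the members with the smallest p-values, Ccna2 (log2 fold change 0.69, SE 0.43), Kif23, a motor of cytokinesis (log2 fold change 0.72, SE 0.54), and Ccnb1 (log2 fold change 0.71, SE 0.57) were above 0, and Tyms (log2 fold change -0.53, SE 0.36) was below 0. Kif23 was at 15.9, 17.99, 17.2 and 22.0 CPM (MYC) and 12.7 and 11.4 CPM (SHH) for T cells. The changes of Mki67, Mcm5 and Top2a were 0.25, 0.10 and -0.02.

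Pcna, the sliding clamp of DNA polymerase (chr2:132249162-132253314), was the member with the largest log2 fold change towards MYC animals in each class, and its counts are uncertain. It was at 68.5, 36.9, 56.8 and 12.98 CPM (MYC) and 4.73 and 16.8 CPM (SHH) for tumour cells, where MYC replicate 5 lay below SHH replicate 2 (log2 fold change 2.15, SE 0.81, adjusted p = 0.161). Macrophages had 71.2, 76.7, 22.8 and 15.7 CPM (MYC) and 6.51 and 3.04 CPM (SHH) (log2 fold change 2.75, SE 0.73, adjusted p = 0.109, and 0.046 without MYC replicate 5). T cells had 87.4, 84.0, 47.5 and 15.9 CPM (MYC) and 13.7 and 15.2 CPM (SHH) (log2 fold change 1.98, SE 0.72, unadjusted p = 0.0201). Between classes of the same animals Pcna did not differ beyond its error (log2 fold change -0.16, SE 0.31, adjusted p = 0.734 in tumour cells against macrophages, adjusted p = 0.286 against T cells and 0.539 in T cells against macrophages).

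The genome also holds Pcna-ps2, a processed pseudogene on chr19:9283380-9284160 that is counted apart in the tables. Over all analysed cells of a library, Pcna-ps2 made up 16.2 to 30.1% of the UMIs of both genes in MYC libraries and 58.7 to 71.1% in SHH libraries. Reads of near-identical copies can be divided between them in counting, so the level of Pcna alone, and its difference between the groups, cannot be taken at face value. Summed with its copy, Pcna was at 98.0, 45.4, 67.2 and 15.9 CPM (MYC) and 25.2 and 40.6 CPM (SHH) for tumour cells. The sum was at 97.4, 90.2, 26.97 and 19.6 CPM (MYC) and 20.1 and 11.1 CPM (SHH) for macrophages, and at 115, 95.96, 65.4 and 21.1 CPM (MYC) and 53.9 and 45.6 CPM (SHH) for T cells. With the copy included the groups overlapped in all 3 classes, since MYC replicate 5 lay below at least 1 SHH animal in each.

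The tumour-minus-macrophage difference of Hmgb2 was not the same in MYC and SHH animals, whose tumour sites and finely gated macrophages also differed. In an edgeR fit with a term for class by group, added after the values were seen, the tumour-minus-macrophage log2 difference was 2.65 lower in MYC than in SHH animals (log2 -2.65, SE 0.53, adjusted p = 0.0107). It was the only member of 36 to pass, against 5.86% of all genes, with 3 at an unadjusted p under 0.05. The call held without each MYC animal (adjusted p 0.0035 to 0.021) and was lost without SHH replicate 1 (-2.74, adjusted p = 0.146) or SHH replicate 2 (-2.57, adjusted p = 0.202), which leaves 1 SHH animal. For tumour cells against T cells 0 of 36 passed (3.16% of all genes) and Hmgb2 was at -1.87 (SE 0.52, adjusted p = 0.0762). For T cells against macrophages 0 of 36 passed (0% of all genes), with 0 at an unadjusted p under 0.05. In T cells Hmgb2 was at 909, 599.7, 1324 and 676 CPM (MYC) and 708 and 919.9 CPM (SHH), above macrophages in each animal, and in tumour cells against T cells it did not pass (log2 fold change -1.002, SE 0.43, adjusted p = 0.0925, and 0.035 without SHH replicate 2).

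Ccne1, cyclin E, which drives entry into S phase (chr7:38097984-38107534), was high in the tumour cells of a single animal. It was at 23.3, 2.64, 181 and 13.6 CPM (MYC) and 15.0 and 15.4 CPM (SHH) for tumour cells, and MYC replicate 4 was far above the rest. There 70 UMIs lay in 22 of 51 cells (43.1%), at most 9 in a cell, and 16 of the 36 cells not called in S or G2/M also held it (181 CPM in those cells). The same animal's macrophages and T cells were at 2.08 and 8.95 CPM. MYC replicate 4 and MYC replicate 2 share the trigeminal site, and the tumour cells of replicate 2 had 8.32 CPM of Ccne1.

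**Figure D5:**
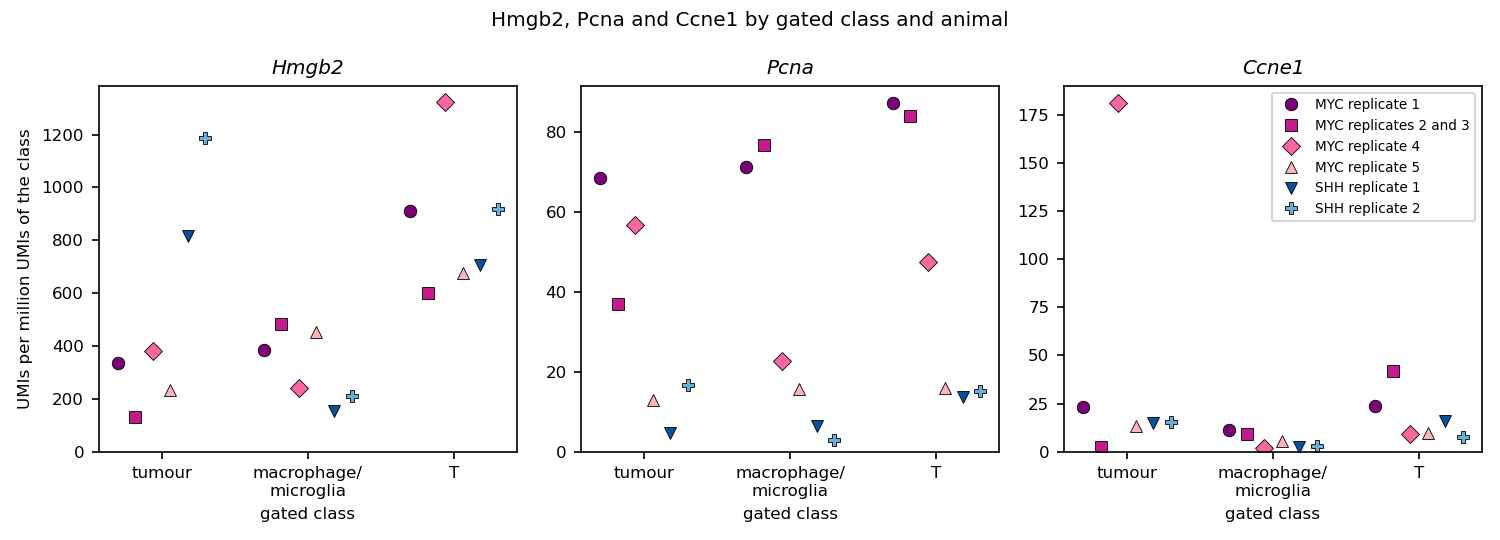
Levels of Hmgb2, Pcna and Ccne1 in CPM, by gated class and animal. Hmgb2 reaches 817 and 1187 CPM in SHH tumour cells against 131 to 380 CPM in MYC tumour cells, and Ccne1 stands at 181 CPM in the tumour cells of MYC replicate 4.

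Further cell cycle genes outside the 40 were counted from 3 lists: 32 of DNA replication, 51 of mitosis and 22 of cell cycle control. In tumour cells against macrophages 4 of 28 tested replication genes were higher and 1 lower, and 10 of 43 mitosis genes were higher and 0 lower. Of 13 control genes 2 were higher and 1 lower. Over all genes tested 18.5% were higher and 20% lower. The median log2 fold changes of the 3 lists were 0.46, 0.69 and 0.03, against 0.06 for all genes. Cks1b, a Cdk-binding subunit (log2 fold change 1.37), Ckap2, a spindle protein (1.73), and Prc1, which bundles the central spindle (1.49), were among the higher genes. Cdkn2a, which encodes inhibitors of Cdk4 and Cdk6 and of Mdm2, was higher in tumour cells than in macrophages (3.47, SE 0.89, adjusted p = 0.00678), while Rb1, the retinoblastoma repressor, was lower (-1.34).

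Against T cells 0 of 28 replication genes were higher in tumour cells and 6 lower, including the DNA ligase Lig1 (-1.17), the flap nuclease Fen1 (-1.16) and the histone mRNA binder Slbp (-0.997). Of the mitosis genes 0 were higher and 1 lower (Smc4, a condensin subunit, -1.06), and of the control genes 1 was higher (Cdkn2a, 3.05) and 2 lower. Over all genes tested 16.1% were higher and 15.8% lower. T cells against macrophages had 9 of 28 replication genes, 12 of 43 mitosis genes and 3 of 13 control genes higher and 0 lower, with medians of 1.01, 0.91 and 0.22. Over all genes tested 9.8% were higher and 14.1% lower, with a median of 0.02. Dut, which clears dUTP (1.94), Cks2 (1.32) and Rbl2, a retinoblastoma relative of resting cells (1.91), were among the higher genes of the lists. Between the subgroups 1 gene of the lists passed in tumour cells, against 7.33% of all genes tested. It was Gas2l3, which links actin and microtubules at the midbody (-4.34, SE 0.78, adjusted p = 0.0273). In macrophages and in T cells 0 passed, against 1.07% and 0.0147% of all genes tested.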

How the data were processed

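The authors deposited unnormalized UMI counts of genes by barcodes, a table for each library. Cell Ranger 2.0.2 and the mm10 build are named in the submitters' processing notes, and the 10x 3' chemistry in the labels' protocols. Barcodes under 500 UMIs or 200 genes, or over 20% mitochondrial, were left out, and the highest Scrublet scores (scanpy 1.11.5), 0.8% of cells per 1000 cells in libraries of 200 or more, were removed. Marker thresholds of the gates were set with the data in view. Sums per animal and class of 20 or more cells (166739 to 24036177 UMIs) were tested with edgeR 4.0.16 (TMM, filterByExpr, quasi-likelihood F test, Benjamini-Hochberg over all genes tested) in R 4.3.3, and with DESeq2 1.42.0 as an alternative. The fits were tested on simulated data. SEs are those of the log2 fold change. Classes of the same animal were paired by the animal as a block, since they came from the same tumour; without it, the calls of tumour cells against T cells and of T cells against macrophages fell from 3 to 1 and from 8 to 4, and of the 5 calls of tumour cells against macrophages 3 remained. Values per animal were given for Mki67, Top2a, Pcna, Mcm5 and Ccnb1, for up to 6 passing members with the largest and up to 6 with the smallest log2 fold changes, and, where fewer than 5 passed, for the 5 with the smallest p-values. Alternatives were other gates, normalizations, filters, thinning depths and leaving out each animal. The members, lists and rules were chosen with earlier results of these data known. Coordinates are from GENCODE on GRCm38, the assembly that mm10 names.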

Additional observations from a re-analysis of the deposited data

Results flagged for a closer look

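In groups of 4 animals, 9 of 126 sets of member levels held a MYC animal far from the other 3; chance alone flags about 1 in 20. Ccne1 stood at 181 CPM in the tumour cells of MYC replicate 4, with the nearest animal at 23.3 CPM and the lowest at 2.64 CPM. Shcbp1 in tumour cells of MYC replicate 5 was at 26.5 CPM, against 7.75 to 10.6 CPM in the other MYC animals. The animal of MYC replicates 2 and 3 was low in T cells for Top2a, at 17.99 CPM with the next at 111 CPM, and for Ube2c, at 5.997 CPM with the next at 108 CPM, a sum of 55 cells. T cells of MYC replicate 5 were high for Gins2, a subunit of the replicative helicase complex, at 50.98 CPM against 22.0 to 24.0 CPM.

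Among macrophages, MYC replicate 5 was high for the centromeric histone Cenpa, at 65.7 CPM against 27.1 to 31.1 CPM. The same animal was flagged for Kif11, at 4.67 CPM where the other 3 animals had 0 UMIs. Those counts of 0 allow levels above 4.67 CPM, so no difference in Kif11 is shown. MYC replicate 4 was low for Mcm5, at 12.4 CPM against 31.6 to 34.7 CPM. MYC replicates 2 and 3 were flagged for the licensing factor Cdc6, at 9.02 CPM against 3.40 to 4.15 CPM, in 31 cells. Cdc6 was too low to enter the class tests, and its levels rest on few UMIs.

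Some class differences ran in opposite directions in every animal of the groups. The share of all genes with such an order was not counted, so these have no background. The summed level of tumour cells minus that of T cells averaged -869 CPM in MYC animals and 510.2 CPM in SHH animals, a difference of -1379 CPM that was not tested. For Hmgb2 the same averages were -607 and 188 CPM, a difference of -795 CPM, and its test on the log2 scale gave an adjusted p of 0.0762 in edgeR. For Ttk, a kinase of the spindle checkpoint, they were -2.98 and 5.64 CPM, a difference of -8.61 CPM that was not tested. Ttk was too low to enter the class tests. It was at 0.98 and 3.80 CPM in T cells of the SHH animals, and its lowest MYC tumour level was 0 CPM. The log2 difference of Hmgb2 between tumour cells and macrophages differed between the groups by -2.65 (SE 0.53, adjusted p = 0.0107, edgeR).

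Cells that entered no class comparison also held the cell cycle transcripts. Of 6957 thinned cells that met no gate 21.2% were called in S or G2/M (1475 cells), and of 976 mixed cells 17.9% (175 cells). These cells are pooled over animals, and most of those without a gate were of MYC replicate 5. By animal the ungated share was 6.17 to 28.6% (mean 19.1%, n = 6 animals). The mixed share was 10.5 to 41.4% (mean 24.6%, n = 5 animals), so the order of the means was the reverse of the pooled order.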

How the results depend on the processing

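Counts of members passing changed with the test and the gate. The share of all genes passing in each setting is not given here, so a rise or fall below cannot be read as particular to the members. DESeq2 gave 1 in MYC against SHH tumour cells, 1 in macrophages and 12 in tumour cells against macrophages, where edgeR gave 0, 0 and 5. Tumour cells against T cells gave 0 with the looser gate and 1 with no replicate block (the animal left out of the design), against 3, and T cells against macrophages gave 4 with no replicate block, against 8. Tumour cells against macrophages gave 5 with no replicate block, 3 of them the same genes, with Top2a and Cenpf lost. No paired analysis was possible for MYC against SHH because the replicate numbers follow the accession order and each animal belongs to 1 group. Leaving out 1 animal gave 0 to 1, 0 to 1 and 0 to 0 calls for the subgroup comparisons in tumour cells, macrophages and T cells, 2 to 9 in tumour cells against macrophages, 0 to 3 against T cells, 2 to 11 in T cells against macrophages and 0 to 2 for the difference between groups in tumour minus macrophage. The lowest counts came without SHH replicate 2 (2), without MYC replicate 4 or SHH replicate 1 (0) and without SHH replicate 1 (2).

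The mean share called was 31.8%, 19.2% and 37.7% in tumour cells, macrophages and T cells when 2 UMIs were enough, 34.7%, 19.5% and 56.1% (4 animals) at 3000 UMIs, and 41.3%, 28.6% and 45.4% by a score of both lists. In unthinned counts the means were 56.1%, 25.6% and 29.0%, with tumour cells above T cells. Without Hmgb2 the summed level of T cells was 1586.5 CPM against 2443 CPM. With 1 animal left out the mean shares were 19.3 to 24.9%, 9.12 to 12.4% and 22.6 to 28.1%.

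Of 706 alternative values for named genes, 619 kept direction and side of the threshold, 55 lost the call, 11 gained it and 21 changed direction, none of the 21 a call. For Top2a in macrophages (MYC against SHH) the log2 fold change became -0.0905 with DESeq2, -0.0342 without doublet removal and -0.13 with sequencing runs as a covariate, and -1.10 to 0.34 with 1 animal left out. In T cells Top2a became 0.0505 and Mcm5 -0.14 with the looser gate, and Top2a 0.19 with runs as a covariate. With 1 animal left out, the subgroup range crossed 0 for Mki67 (-1.15 to 0.0038) and Mcm5 (-0.90 to 0.0623) in tumour cells, for Ccnb1 (-0.0484 to 0.57) and Mki67 (-0.18 to 1.08) in macrophages, and for Mki67 (-0.0734 to 0.67), Top2a (-0.45 to 0.54) and Mcm5 (-0.23 to 0.44) in T cells. It also crossed 0 in tumour cells against macrophages for Pcna (-0.42 to 0.0454) and Mcm5 (-0.0765 to 0.60), and against T cells for Top2a (-0.50 to 0.0788) and Ccnb1 (-0.0032 to 0.89). The cause was not tested. Small classes limit depth: the smallest sum held 166739 UMIs.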
